A study of Mus musculus with 18 samples.

Results

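The 9 genes Mat1a, Gnmt, Bhmt, Bhmt2, Ahcy, Cbs, Cth, Nnmt and Pemt carry out the methionine cycle, its outlet to cysteine and methyl transfers that draw on it. They were chosen by symbol, and each was matched to 1 Ensembl identifier among the 28030 genes in the table. All 9 passed the filter on low counts that left 12477 genes for testing. RNA was sequenced from hepatocytes of wild-type C57BL/6J male mice aged 12 weeks and kept on normal chow, with digitonin used to separate the pericentral and the periportal zone of the liver lobule. Each zone was sampled in 3 feeding states with 3 libraries each, which gave 6 groups and 18 libraries. All mice had been trained for 3 days to a nightly fast of 16 h and 8 h of daytime feeding. Fed mice had eaten for 4 h, with 20% sucrose in the water, and were killed at clock hour 13. For the fasts, food and sucrose were taken away at clock hour 13, and tissue was collected after 8 h (at clock hour 21) or 24 h (at clock hour 13 again). Hours of fasting and time of day therefore cannot be told apart at 8 h. No label states whether the replicates of a group came from separate mice. The p-values set each difference against the spread between libraries, estimated over all 6 groups in the main fit. That spread may be partly technical.

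In the liver, methionine is activated to S-adenosylmethionine, the methyl donor of most methyltransferases. Once the methyl group is used, S-adenosylhomocysteine remains and is split to homocysteine. Homocysteine is either methylated back to methionine or passed by transsulfuration to cysteine, the precursor of glutathione and taurine. Periportal hepatocytes lie where blood enters the lobule, and pericentral hepatocytes where it leaves. The lobule divides amino acid, nitrogen and drug metabolism between them.

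On the mm10 build (GENCODE annotation, 1-based), the genes lie at chr14:41105035-41124412 (Mat1a, ENSMUSG00000037798), chr17:46725664-46729168 (Gnmt, ENSMUSG00000002769), chr13:93616675-93637961 (Bhmt, ENSMUSG00000074768) and chr13:93655720-93674302 (Bhmt2, ENSMUSG00000042118). The others lie at chr2:155059310-155074497 (Ahcy, ENSMUSG00000027597), chr17:31608894-31637238 (Cbs, ENSMUSG00000024039), chr3:157894248-157925077 (Cth, ENSMUSG00000028179), chr9:48591877-48605153 (Nnmt, ENSMUSG00000032271) and chr11:59970614-60046489 (Pemt, ENSMUSG00000000301). Mat1a is on the plus strand and the other 8 are on the minus strand. Bhmt and Bhmt2 are neighbours on chromosome 13.

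The libraries held 18359911 to 26384358 estimated counts, of which the 9 genes together took 0.828% to 1.83%. Levels are given as counts per 1000000 (CPM), scaled by TMM factors that put the libraries on a common total. The summed CPM of 6 hepatocyte markers was 59572 to 100994 in the pericentral and 111381 to 191588 in the periportal libraries, without overlap. The 5 pericentral markers summed to 9434 to 18570 CPM in the pericentral and 421 to 2049 CPM in the periportal libraries, and the 5 periportal markers to 279 to 1797 CPM against 3285 to 5607 CPM. Markers of other liver cells were low, with sums of at most 25.8 CPM (endothelial), 17.4 CPM (Kupffer cells and leukocytes), 14.5 CPM (stellate cells and fibroblasts) and 56.7 CPM (cholangiocytes, with Epcam at 0 in every library). Pericentral 24 h replicate 2 stood apart on the periportal side of its group, with 111 CPM of the pericentral marker Glul (928 and 707 CPM in the others), 257 CPM of Oat (1055 and 1158), 8.82 CPM of Slc1a2 (241 and 256) and a periportal marker sum of 1797 CPM (871 and 808). Periportal 8 h replicate 1 had 964 CPM of the hepatocyte marker Tat, against 4445 and 3010 CPM, and was the lowest of its group for 8 of the 9 genes. Periportal fed replicate 1 and periportal 24 h replicate 1 were each the lowest of their group for 7 of the 9. Low values were not limited to the periportal zone. Pericentral fed replicate 1 and pericentral 8 h replicate 1 were each the lowest for 6 of the 9, and pericentral 24 h replicate 2 for 5. In bulk samples, fewer cells of a type and less RNA per cell cannot be told apart.

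Per kilobase of the longest annotated coding transcript, Gnmt had the highest level, with a median of 2058 CPM per kb over the 18 libraries. Ahcy (1372), Bhmt (1293) and Mat1a (823 CPM per kb) followed, and the ranges of these 4 genes overlapped one another. Pemt (294), Cth (240), Nnmt (138), Bhmt2 (88.1) and Cbs (52.4 CPM per kb) were lower. The ranges of Pemt, Cth and Nnmt overlapped, Nnmt also overlapped Bhmt2 and Cbs, and Mat1a at its lowest (403) lay within the range of Cth (up to 424 CPM per kb). The Cbs value divides by a transcript of 6226 bases, the longest of 9 annotated coding ones, so it would be higher for a shorter isoform. The genes also differed in how far replicates spread. The coefficient of variation within a group was 2.70% to 18.3% for Bhmt2, 4.10% to 14.9% for Cbs and 9.65% to 15.5% for Pemt, but 5.82% to 51.1% for Bhmt and 16.3% to 60.2% for Nnmt.

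**Figure D1:**
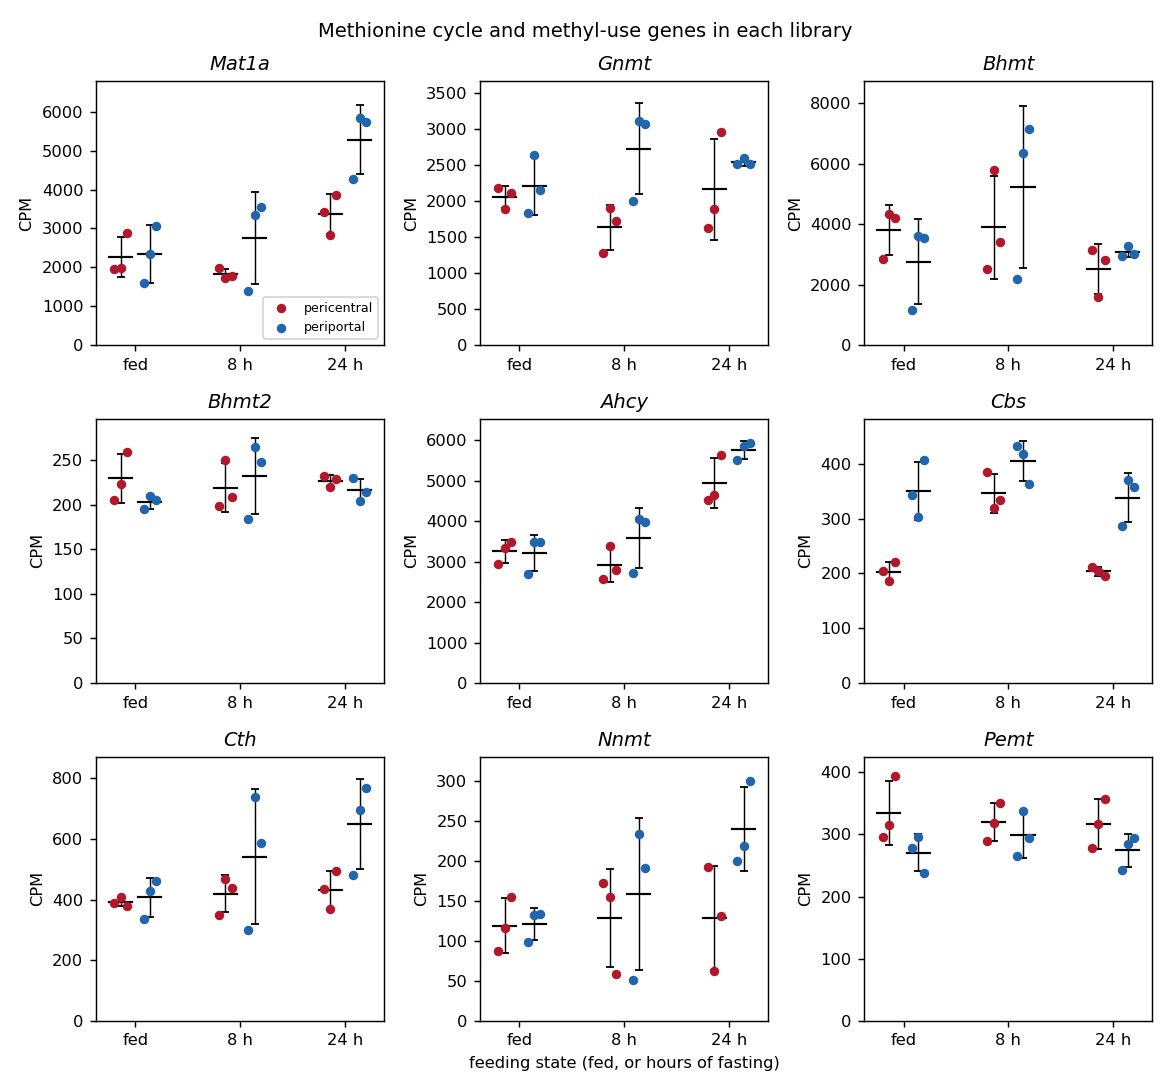
Level of each of the 9 genes in CPM (linear axes from 0) by feeding state, with 1 point for each library, pericentral in red and periportal in blue, and black bars for the mean and SD of 3 libraries. Ahcy and Mat1a are highest at 24 h, pericentral Cbs is high at 8 h alone, and Bhmt2 and Pemt stay within narrow ranges.

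Cbs was the only one of the 9 genes that edgeR called between the zones (adjusted p under 0.05 over all genes tested), and it was higher on the periportal side. Ahcy rose in both zones by 24 h of fasting, and Mat1a rose in the periportal zone. Between the zones, 1 of the 9 genes was called in fed mice (8.01% of all genes tested were called), 0 after 8 h (7.14%) and 1 after 24 h (4.17%). Averaged over the states it was 1 of 9 (20.3% of all genes). At 8 h the unadjusted p was under 0.05 for 1 of the 9 (20.9% of all genes), DESeq2 called 1 (9.17%) and limma-voom called 0 (7.01%). The median periportal minus pericentral log2 fold change of the 9 genes was 0.02 in the fed state, 0.30 at 8 h and 0.29 at 24 h, where that of all genes tested was 0.0013, 0.0069 and 0.00094.

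From fed to 8 h, edgeR called 1 of the 9 genes in pericentral hepatocytes (13.8% of all genes) and 0 in periportal ones (14.4%). For the periportal comparison the unadjusted p was under 0.05 for 0 of the 9, and DESeq2 and limma-voom called 0. From fed to 24 h it called 1 in pericentral (21.8% of all genes) and 2 in periportal hepatocytes (19.6%). Between 8 h and 24 h it called 2 (9.71%) and 1 (7.46%). The median log2 fold change of the 9 from fed to 24 h was 0.07 in pericentral and 0.20 in periportal hepatocytes, and from fed to 8 h -0.07 and 0.24. Those of all genes tested lay between -0.0016 and 0.015. With 9 genes, counts of 0 to 2 do not set the group apart from this background, and the results below are those of single genes. The comparisons within a zone share libraries with one another.

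**Figure D2:**
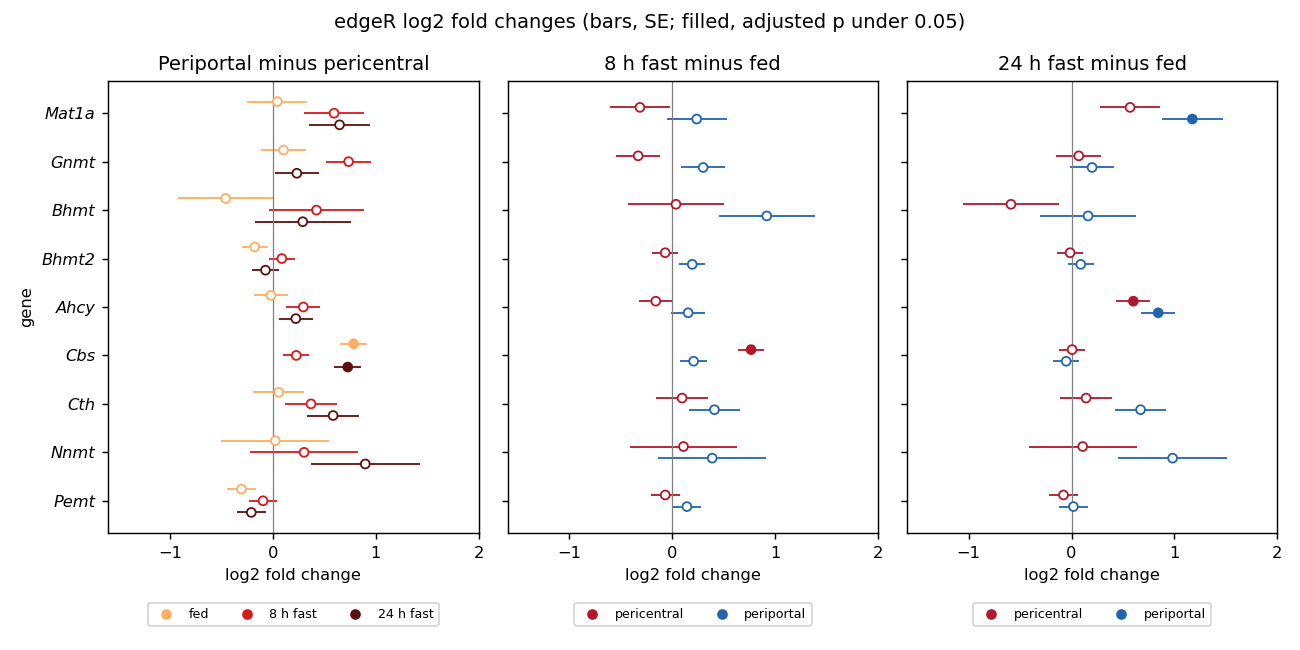
EdgeR log2 fold changes of the 9 genes (horizontal axis) between the zones in each state and against fed at 8 h and 24 h in each zone, with bars for the SE and filled points for an adjusted p under 0.05. The filled points are Cbs between the zones in fed and 24 h mice, Cbs at 8 h in pericentral hepatocytes, Ahcy at 24 h in both zones and Mat1a at 24 h in periportal hepatocytes.

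Mat1a encodes the catalytic subunit of the liver form of methionine adenosyltransferase, which makes S-adenosylmethionine. In periportal libraries it stood at 1598, 2354 and 3072 CPM in fed mice, 1399, 3348 and 3539 CPM at 8 h and, after the 24 h fast, 4271, 5846 and 5736 CPM. Each 24 h library was above every fed and every 8 h periportal library. The rise from fed to 24 h was 2.26-fold (log2 fold change 1.17, SE 0.30, edgeR adjusted p 0.0112). It was no longer called without periportal fed replicate 1, the lowest of its group (0.96, adjusted p 0.0594). From 8 h to 24 h the value was 0.94 with an adjusted p of 0.0656. It was called by DESeq2 (adjusted p 0.0127), and was 0.61 without periportal 8 h replicate 1 (adjusted p 0.153).

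In pericentral libraries Mat1a stood at 1966, 1979 and 2872 CPM in fed mice, 1975, 1735 and 1774 CPM at 8 h and, after the 24 h fast, 3410, 2840 and 3862 CPM. The 24 h group lay above the 8 h group without overlap and overlapped the fed group by 1 library. The log2 fold change from fed to 24 h was 0.57 (SE 0.29, edgeR adjusted p 0.185), and that from 8 h to 24 h was 0.88 (adjusted p 0.072). The second was called by DESeq2 and in the fit of those 2 groups alone (adjusted p 0.0187 and 0.0226), and also without periportal 8 h replicate 1 (0.87, adjusted p 0.0165). At 24 h all 3 periportal libraries exceeded all 3 pericentral ones, with a periportal minus pericentral difference of 0.65 (SE 0.29, edgeR adjusted p 0.275). In order of mean level, periportal 24 h (5284 ± 879 CPM, SD, n = 3) did not overlap pericentral 24 h (3371 ± 512 CPM), and each further neighbour in the order overlapped the next.

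Ahcy encodes S-adenosylhomocysteine hydrolase, which splits S-adenosylhomocysteine to homocysteine and adenosine and so clears an inhibitor of methyltransferases. It stood at 2938, 3339 and 3496 CPM in fed, 2571, 3381 and 2798 CPM in 8 h and 4514, 4655 and 5652 CPM in 24 h pericentral libraries. In periportal libraries it stood at 2689, 3476 and 3483 CPM, then 2724, 4051 and 3970 CPM, and at 24 h 5512, 5858 and 5931 CPM. All 6 libraries of the 24 h groups lay above all 12 others. From fed to 24 h Ahcy rose 1.52-fold in pericentral hepatocytes (log2 fold change 0.60, SE 0.17, edgeR adjusted p 0.0153) and 1.79-fold in periportal ones (0.84, SE 0.17, adjusted p 0.00193). On the log2 scale it rose by 0.76 in the pericentral zone (SE 0.17, edgeR adjusted p 0.00911) and by 0.69 in the periportal zone (SE 0.17, adjusted p 0.0194) from 8 h to 24 h.

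The periportal rise of Ahcy from fed to 24 h was called under all 27 alternative settings. The pericentral one was lost without fed replicate 1 (0.52, edgeR adjusted p 0.071) or 24 h replicate 3 (0.49, adjusted p 0.08) of that zone. Between 8 h and 24 h the pericentral call was lost without 8 h replicate 1 (0.67) or 24 h replicate 3 (0.65). The periportal one was lost without 8 h replicate 1 (0.51), 24 h replicate 2 (0.67) or 24 h replicate 3 (0.67), and when only those 2 groups were fitted (0.70). Of the 31-base words of the Ahcy transcripts, 78.6% also occur in transcripts of other genes, so its reads had to be shared out. The predicted gene Gm4737 shares 1923 of these words and was assigned 114 to 292 counts a library, or 0.224% of the Ahcy counts over all libraries. Gm9826 (988 words) was assigned 11.9 to 55.7 counts. Estimated counts of Mat1a, Gnmt, Bhmt2 and Cbs were also whole numbers in 0 libraries, although Mat1a and Gnmt shared 0% of their words. Shared words therefore do not account for every fractional count, and the source of these fractions was not tested.

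Ahcy and Cbs were the genes called in the most comparisons, and the bases just before their start sites are shown for that reason. RefSeq promoter entries on GRCm38.p6 were found for 6 of the 9 genes (Ahcy, Bhmt, Bhmt2, Cbs, Gnmt and Pemt). The Ahcy stretch covers the 250 bases of chr2:155074498-155074747 and the Cbs stretch the 217 bases of chr17:31637239-31637455, both on the minus strand and written 5′ to 3′. Capitals mark matches to the CCAAT box (CCAAT or ATTGG), the GC box (GGGCGG or CCGCCC) and the E-box CACGTG, searched on both strands.

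Ahcy: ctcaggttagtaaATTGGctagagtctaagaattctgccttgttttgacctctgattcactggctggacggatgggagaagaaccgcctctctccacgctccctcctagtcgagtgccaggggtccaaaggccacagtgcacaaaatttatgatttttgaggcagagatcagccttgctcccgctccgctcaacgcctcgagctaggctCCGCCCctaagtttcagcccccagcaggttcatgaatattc
Cbs: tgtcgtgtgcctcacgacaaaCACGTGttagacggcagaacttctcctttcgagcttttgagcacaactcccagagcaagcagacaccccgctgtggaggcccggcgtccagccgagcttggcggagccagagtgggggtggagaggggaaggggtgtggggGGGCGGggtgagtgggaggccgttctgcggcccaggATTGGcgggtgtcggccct

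Each stretch holds 1 CCAAT box and 1 GC box, and the Cbs stretch also holds 1 E-box, the sequence bound by clock and MYC-type factors. The CCAAT box begins 237 bases before the end of the Ahcy stretch and 19 bases before the end of the Cbs stretch. Among 32851 promoters cut to 250 bases, 33.8% hold a CCAAT box and 32.7% a GC box. Cut to 217 bases, 30.6%, 28.0% and 4.92% hold a CCAAT box, a GC box and this E-box. A TATA box (TATAAA), a CRE half-site (TGACG) and a glucocorticoid half-site (AGAACA) had 0 matches in both stretches.

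Cbs encodes cystathionine beta-synthase, which joins homocysteine to serine and commits it to transsulfuration. In fed mice it stood at 205, 185 and 220 CPM in pericentral and 343, 303 and 406 CPM in periportal libraries. The 2 groups did not overlap, and the periportal level was 1.72-fold higher (log2 fold change 0.79, SE 0.13, edgeR adjusted p 0.000880). At 24 h the pericentral libraries had 212, 204 and 196 CPM and the periportal ones 287, 371 and 357 CPM. Again the groups did not overlap (0.73, SE 0.13, edgeR adjusted p 0.00319). At 8 h the pericentral libraries had 386, 319 and 334 CPM and the periportal ones 433, 419 and 363 CPM. These overlapped, and edgeR made no call (0.23, SE 0.13, adjusted p 0.336).

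Within a zone, edgeR called changes of Cbs in pericentral hepatocytes. There it rose 1.70-fold from fed to 8 h (log2 fold change 0.77, SE 0.13, edgeR adjusted p 0.000705) and fell by 0.76 from 8 h to 24 h (SE 0.13, adjusted p 0.00184), in both cases without overlap. The 24 h and fed pericentral groups overlapped, and the 95% interval of their log2 difference ran from -0.27 to 0.28. In periportal hepatocytes the log2 change was 0.21 from fed to 8 h (95% interval -0.06 to 0.48) and -0.26 from 8 h to 24 h (-0.53 to 0.01), neither of them called. The zone difference in the change, periportal minus pericentral, was -0.56 from fed to 8 h (SE 0.18, unadjusted p 0.00696, edgeR adjusted p 0.909) and 0.50 from 8 h to 24 h (SE 0.18, unadjusted p 0.0136, adjusted p 0.775). A difference between the zones in this response was therefore not called over all genes tested. Each edgeR call of Cbs held under every setting tried, which included leaving out each library in turn. In order of mean level, the fed and 24 h pericentral groups (203 ± 17.4 and 204 ± 8.36 CPM, SD, n = 3 each) lay below the other 4 groups, whose neighbours in the order overlapped.

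Cth encodes cystathionine gamma-lyase, which releases cysteine from cystathionine in the next step. In periportal libraries it stood at 335, 428 and 460 CPM in fed mice, 300, 739 and 587 CPM at 8 h and, after the 24 h fast, 483, 695 and 769 CPM. The 24 h and fed groups did not overlap, while the 8 h group overlapped both. The log2 fold change from fed to 24 h was 0.67 (SE 0.25, edgeR adjusted p 0.0734), which missed the threshold, and was called under 7 of 27 settings. Among these were DESeq2 (adjusted p 0.0361), the fit of those 2 groups alone (0.0401) and leaving out periportal 8 h replicate 1 (0.0137) or 2 (0.0476) or 24 h replicate 1 (0.85 on the log2 scale, 0.0394), and over all settings the adjusted p ran from 0.0126 to 0.241. In pericentral libraries Cth stayed between 350 and 494 CPM in all 9. The periportal minus pericentral difference at 24 h was 0.59 (SE 0.25, adjusted p 0.243), with overlapping libraries.

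Gnmt encodes glycine N-methyltransferase, which passes surplus methyl groups to glycine. At 8 h it stood at 1284, 1897 and 1721 CPM in pericentral and 2000, 3106 and 3063 CPM in periportal libraries. The groups did not overlap, and the difference of 0.74 (SE 0.22, edgeR adjusted p 0.0505) lay just outside the threshold. DESeq2 called it (adjusted p 0.0107), as did edgeR without periportal 8 h replicate 1 (0.91, adjusted p 0.013) and without pericentral 24 h replicate 1 (0.73) or 3 (0.74). In fed mice the groups overlapped (1888 to 2176 CPM pericentral, 1838 to 2634 CPM periportal), as they did at 24 h (1629 to 2956 CPM and 2504 to 2600 CPM). Averaged over the states, Gnmt was 0.36 higher on the periportal side (SE 0.13, adjusted p 0.0529). Within the zones, 0 of the 6 comparisons of feeding states were called for Gnmt by edgeR, DESeq2 or limma-voom, and 0 had an unadjusted p under 0.05.

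The low values of periportal 8 h replicate 1 bear on the 8 h comparison of the zones. This library is singled out because it was the lowest of its group for 8 of the 9 genes. Leaving it out raises the periportal level of those genes by construction, so the calls below are no separate evidence of a zone difference. Without this library, edgeR called 3 of the 9 genes between the zones at 8 h, with 8.98% of all genes tested called in that fit. All 3 were higher on the periportal side: Gnmt (0.91), Mat1a (0.90, adjusted p 0.0225) and Cth (0.66, adjusted p 0.0447). Averaged over the states, 4 of the 9 were then called (21.9% of all genes), namely Cbs with Mat1a (0.53), Gnmt (0.41) and Cth (0.43). That average had 3 calls without periportal fed replicate 1 (18.1% of all genes), and 2 without pericentral 8 h replicate 2 (18.7%) or pericentral 24 h replicate 3 (18.5%). Endothelial, Kupffer and stellate markers summed to 3.43, 0.404 and 0.969 CPM in periportal 8 h replicate 1, the lowest sums of its group. Its periportal marker sum was also the lowest of its group, with 3772 CPM against 5137 and 5607 CPM. Its pericentral marker sum was the highest, with 1094 CPM against 973 and 490 CPM. Among the pericentral markers, its Cyp2e1 was the highest of the group (937 CPM) and its Glul the lowest (67.7 CPM). Its low Tat is given above, and the part of any of these in the result was not tested.

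Nnmt encodes nicotinamide N-methyltransferase, which spends S-adenosylmethionine on nicotinamide. In periportal libraries it stood at 98.5, 132 and 133 CPM in fed mice, 51.4, 234 and 191 CPM at 8 h and, after the 24 h fast, 200, 219 and 300 CPM. The 24 h group lay above the fed group without overlap, with a log2 fold change of 0.98 (SE 0.53, edgeR adjusted p 0.225). It was called when those 2 groups alone were fitted (adjusted p 0.00656) and under no other setting. In pericentral libraries Nnmt varied from 58.7 to 192 CPM, and the libraries with the least were 8 h replicate 3 (58.7 CPM) and 24 h replicate 2 (62.7 CPM), the library with low Glul. The 95% interval of the periportal change from fed to 24 h, from -0.16 to 2.12, spans both no change and a rise of over 4-fold.

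Pemt encodes phosphatidylethanolamine N-methyltransferase, which makes phosphatidylcholine with methyl groups from S-adenosylmethionine. It ranged from 238 to 393 CPM over the 18 libraries, 1.66-fold from lowest to highest. In fed mice it stood at 295, 315 and 393 CPM in pericentral and 278, 296 and 238 CPM in periportal libraries. The periportal minus pericentral difference was -0.31 in fed mice (SE 0.14, unadjusted p 0.0426, edgeR adjusted p 0.217) and -0.20 averaged over the states (SE 0.08, adjusted p 0.0871), neither of them called. By mean level the 3 pericentral groups (317 to 335 CPM) stood above the 3 periportal ones (271 to 299 CPM), and every neighbour in this order overlapped the next.

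Bhmt encodes betaine-homocysteine methyltransferase, which remakes methionine with a methyl group from betaine. It had the widest range of the 9 genes, from 1154 to 7153 CPM, or 6.20-fold. Its periportal libraries stood at 1154, 3603 and 3533 CPM in fed mice, 2181, 6346 and 7153 CPM at 8 h and, after the 24 h fast, 2947, 3291 and 3029 CPM. The 8 h group held both the second lowest and the 2 highest of these values, so it overlapped the others. The log2 fold change from fed to 8 h was 0.92 (SE 0.47, edgeR adjusted p 0.223) and that from 8 h to 24 h was -0.76 (SE 0.47, adjusted p 0.374). The first was 0.55 without periportal fed replicate 1. The second was -0.47 without periportal 8 h replicate 3, and -1.14 (adjusted p 0.0476) without both periportal fed and 8 h replicates 1. In pericentral libraries Bhmt stood at 2851, 4343 and 4198 CPM, then 2504, 5784 and 3398 CPM, and at 24 h 3150, 1594 and 2831 CPM. Of its 31-base words 68.5% occur in other transcripts, 1560 of them in Gm5096, which was assigned 25.4 to 143 counts a library, or 0.0856% of the Bhmt counts.

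Bhmt2 encodes a related enzyme that takes its methyl group from S-methylmethionine. It ranged from 185 to 265 CPM over all 18 libraries, 1.44-fold from lowest to highest, and shares 40 words of 31 bases with Bhmt. Over the 3 zone comparisons within a state and the 4 comparisons with fed, the 95% intervals of its log2 fold changes lay between -0.45 and 0.47, so larger changes lay outside the intervals. Those of Pemt lay between -0.60 and 0.44. With all 18 libraries in 1 fit, Bhmt2, Pemt, Bhmt and Nnmt had 0 calls in the 13 contrasts by edgeR, DESeq2 or limma-voom, and an unadjusted p under 0.05 in 0 contrasts, except in 2 for Pemt.

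The zone difference in the response to fasting was tested for all 9 genes. EdgeR called 0 of 9 from fed to 8 h (0% of all genes tested), 0 of 9 from fed to 24 h (0.0160%) and 0 of 9 from 8 h to 24 h (0%). At an unadjusted p under 0.05 there were 1, 0 and 1, Cbs in each case, and DESeq2 and limma-voom called 0. Adjusted p-values of the 9 genes were 0.775 or higher. The call of Mat1a from fed to 24 h in the periportal and not in the pericentral zone does not show a difference between them. For Mat1a the periportal minus pericentral change had a 95% interval of -0.27 to 1.48 on the log2 scale.

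**Figure D3:**
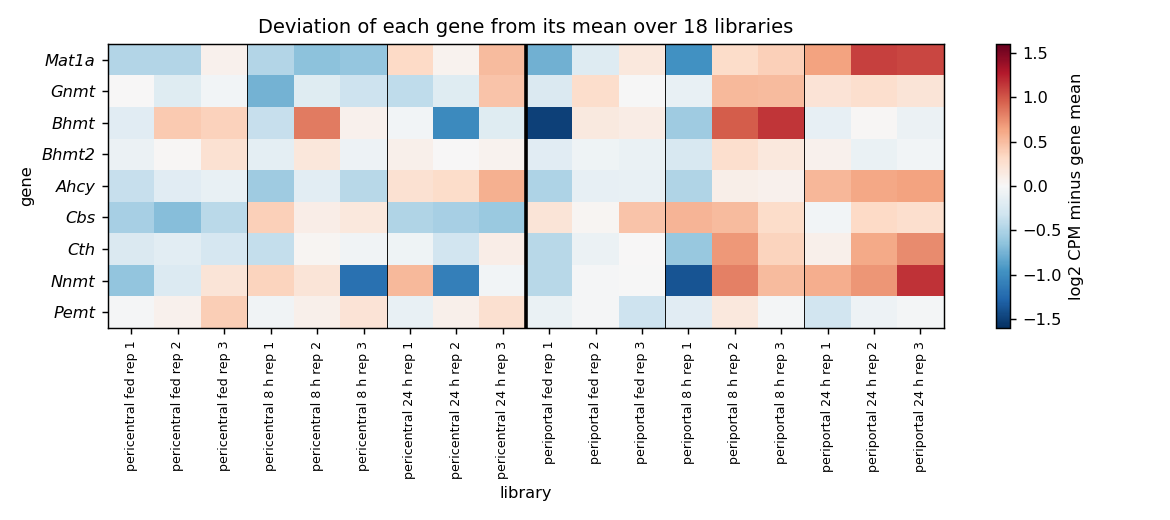
Heat map of log2 CPM of each gene minus its mean over the 18 libraries (colour scale from -1.6 to 1.6), with pericentral libraries left and periportal libraries right of the thick line. Mat1a and Ahcy are high in the periportal 24 h columns, and the periportal fed replicate 1 and 8 h replicate 1 columns are low for most genes other than Cbs.

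Across the 18 libraries Mat1a and Ahcy varied together more than any other pair of the 9 (Pearson r 0.92 of log2 CPM). Mat1a with Cth followed (0.79), then Cth with Nnmt (0.74) and Mat1a with Nnmt (0.72). Cbs had low coefficients with most of the others, from -0.40 with Pemt to 0.27 with Cth. These values are descriptions over libraries that share feeding states and zones, and no test was made of them. Among 6613 genes with a mean of at least 10 CPM, the 2 most like Ahcy were Adipor1 (0.92), an adiponectin receptor, and Mat1a. For Mat1a they were Ahcy and Shb (0.89), for Cbs Abca2 (0.89) and the glycine cleavage gene Gldc (0.83), for Cth Fmo5 (0.89) and the ornithine carrier Slc25a15 (0.88), and for Nnmt the tyrosine aminotransferase Tat (0.82) and Slc25a15 (0.81). The closest to Gnmt were Sdhb (0.86) and Serpina1d (0.83), to Bhmt Cyp2b10 (0.78) and Gstk1 (0.74), to Bhmt2 Gpld1 (0.80) and the betaine carrier Slc6a12 (0.78), and to Pemt Tmem205 (0.77) and Ugt1a5 (0.75).

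The neighbouring genes of the pathway were described in 5 lists of 47 genes in all, every one of them tested. Averaged over the states, 11 were higher and 7 lower in periportal hepatocytes by edgeR, and 29 were not called, where 20.3% of all genes tested were called. Their median of 0.02 stood beside 0.0017 for all genes. The folate list had 4 higher and 0 lower of 14. Gldc, of the glycine cleavage system, was 2.14 higher on the log2 scale (SE 0.11, adjusted p 4.57e-09), from 45.9 ± 13.5 CPM in pericentral to 287 ± 22.5 CPM in periportal fed libraries (SD, n = 3 each). Ftcd (1.43), which takes histidine carbon into folate, and Mthfd1l (1.32), a mitochondrial formate-producing enzyme, were also higher. The cysteine list had 3 higher and 3 lower of 10. Csad, which makes hypotaurine on the way to taurine, was lower by -2.50 (SE 0.39, adjusted p 0.000412), and so was Tst (-0.70), whereas Sqor (0.77), which oxidises sulfide, was higher.

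Averaged over the states, Cbs at the entry to transsulfuration was higher on the periportal side, and Csad at its outlet to taurine on the pericentral side. In the fit of all 18 libraries, edgeR did not call Cbs between the zones at 8 h, and it called Cth in no zone comparison. In fed mice Csad stood at 532 ± 140 CPM in pericentral and 82.2 ± 38.1 CPM in periportal libraries. Of the 10 other methyl consumers and nicotinamide genes, 4 were higher and 2 lower. They included Hnmt, which methylates histamine (0.88), and Nadsyn1, an enzyme of NAD synthesis (0.66), among the higher, and Aox1, an aldehyde oxidase (-0.78), among the lower. The remethylation and S-adenosylmethionine list had 0 higher and 2 lower of 8, namely Mat2a, the methionine adenosyltransferase that prevails outside the liver (-0.27), and Ahcyl1, an Ahcy-like protein (-0.21). Of the 5 choline, betaine and sarcosine genes edgeR, DESeq2 and limma-voom each called 0, and 0 had an unadjusted p under 0.05.

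From fed to 24 h, 7 of the 47 rose and 8 fell in pericentral hepatocytes, and 2 rose and 6 fell in periportal ones. Of all genes tested, 21.8% and 19.6% were called there. The median of the 47 was 0.09 and -0.08. Cdo1, which oxidises cysteine toward taurine and sulfate, rose in both zones, by 0.67 in the pericentral (SE 0.17, edgeR adjusted p 0.0108) and by 1.19 in the periportal zone (SE 0.17, adjusted p 0.000203). Its periportal mean went from 713 ± 165 to 1628 ± 53.3 CPM (SD, n = 3 each), and its pericentral rise was lost without pericentral fed replicate 1 or 24 h replicate 3 (lowest 0.55). Shmt1, the cytosolic serine hydroxymethyltransferase, fell in both zones (-0.46 and -0.75). Gldc rose by 1.0 in pericentral hepatocytes (SE 0.19, adjusted p 0.00151). Mat2a (-0.56), Ahcyl2 (-0.69) and Mthfd2 (-1.24, adjusted p 0.0431) fell there, and Mat2b (0.41), the regulatory partner of Mat2a, As3mt (0.63) and Nampt (0.66) rose. Mthfd2 had at most 2.04 CPM in these libraries and was called under 14 of 27 settings only.

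In periportal hepatocytes Gss, the glutathione synthetase, fell by 0.61 from fed to 24 h (SE 0.15, edgeR adjusted p 0.00919), and Aox3 (-0.87) and Inmt (-0.77) fell too. The call of Gss was lost without periportal 24 h replicate 2 and that of Inmt without replicate 3. That of Aox3 was lost without periportal fed replicate 1 or 3 or 24 h replicate 2 or 3 (-0.68 at the smallest). In pericentral hepatocytes the calls of Ahcyl2, Mat2b, Nampt, Sqor (0.40), Tst (-0.36) and Mthfd2 were each lost without at least 1 library, and pericentral 24 h replicate 2 was such a library for all 6. Its low Glul is given above and its part in these calls was not tested. The zone difference in the response was called by edgeR for 0 of the 47 genes in each of the 3 contrasts, and by DESeq2 and limma-voom for 0 too. The unadjusted p was under 0.05 for 5 of them from fed to 8 h, 11 from fed to 24 h and 8 from 8 h to 24 h, and for 5.45%, 7.71% and 5.98% of all genes tested.

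**Figure D4:**
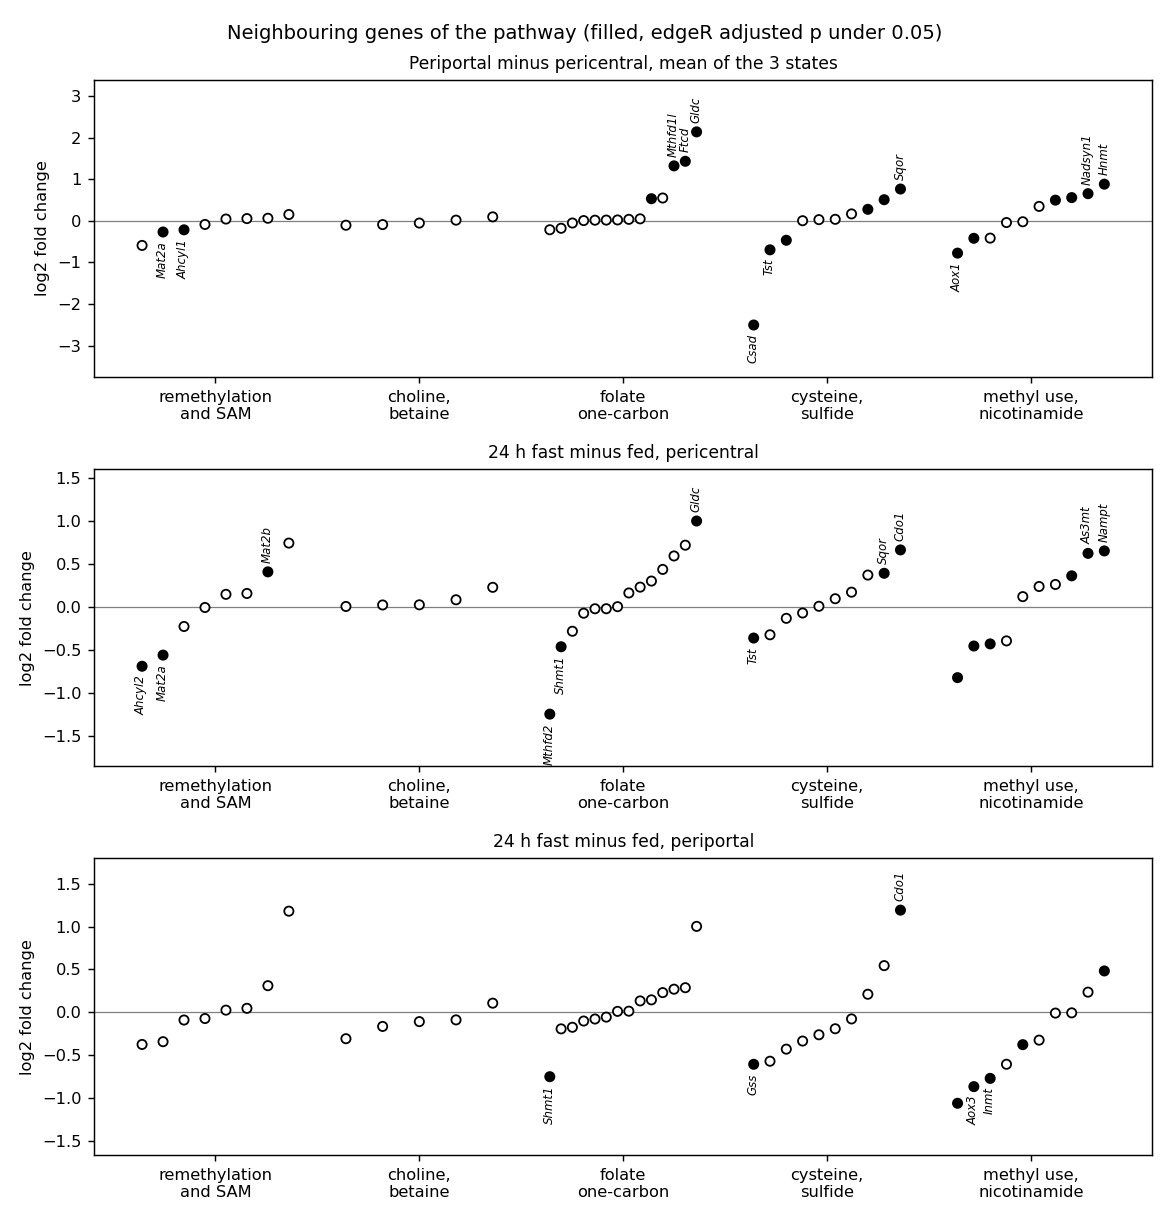
EdgeR log2 fold changes of the 47 neighbouring genes, grouped in 5 lists and ordered by size within each list, for the average zone difference and for 24 h against fed in each zone (filled, adjusted p under 0.05). Some of the called genes are named, such as Gldc at 2.14 and Csad at -2.50 in the top panel.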

How the data were processed

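Per the submitters' processing notes, reads were processed with kallisto 0.46.0 on mm10. Their deposited table gives estimated counts for each gene and library, as the authors made them. Library kits are named in the labels, and the use of strand is not given in the sources used here. Estimated counts were rounded to whole numbers, filtered with filterByExpr and tested with edgeR 4.0.16 (robust quasi-likelihood F test, TMM, R 4.3.3) in 1 fit of 18 libraries and 6 groups. P-values of 13 contrasts were Benjamini-Hochberg adjusted over 12477 genes, and a gene was called under 0.05. The test was checked on simulated data. Each library kept 99.95% or more of its counts in the tested genes, and 3 libraries a group limit the precision. Intervals are at 95%. DESeq2 1.42.0, limma-voom (limma 3.58.1), other scalings, filters and fits, and leaving out libraries were alternatives. Log2 CPM used a prior count of 2. Replicates differed beyond counting noise (chi-square per degree of freedom 35.9 to 122). The labels give no pairing. Deviations of same-numbered libraries of the 2 zones correlated at 0.12 to 0.17 at 24 h and at -0.011 to 0.071 in the fed and 8 h states. Values this low do not settle whether the numbers pair the libraries at 24 h. Members and lists were chosen with earlier results of these data known. Neighbouring genes were named by rule: called in the average zone comparison or at 24 h against fed in either zone, and among the 3 largest changes of their list. A gene that met the rule is not reported here.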

Additional observations from a re-analysis of the deposited data

How the results depend on the processing

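Of the 117 gene and contrast pairs, 39 were picked out, and 38 of these 39 kept the sign of their log2 fold change under every setting. The 38 have an unadjusted p under 0.1 or a call under any setting, with 2 exceptions. These are Cbs from fed to 8 h in periportal hepatocytes and the zone difference of Mat1a in the change from fed to 24 h. Cbs from fed to 24 h in pericentral hepatocytes (0.0057) changed sign, to -0.0017 with no low-count filter, to -0.0086 with the 20 most abundant genes left out of the scaling, to -0.00016 and -0.0015 without 2 libraries (named below), and from -0.063 to 0.065 leaving out each library. Of the other 78 pairs, which include all those of Bhmt2, 35 changed sign under at least 1 setting. Of the counts of the 9 genes called, those in fed and 24 h zone comparisons, at 8 h against fed in pericentral hepatocytes and for the zone differences held throughout. Fitting only the groups compared gave 4 at 24 h against fed in periportal hepatocytes and 0 at 24 h against 8 h there. DESeq2 gave 1 between the zones at 8 h (9.17% of all genes), 3 in the average zone comparison (19.3%) and 2 at 24 h against 8 h in periportal hepatocytes. DESeq2 also added Cth at 24 h against fed in periportal hepatocytes and Mat1a at 24 h against 8 h in pericentral ones. The fit of the groups compared added Mat1a there too. Limma-voom gave 2 in the average zone comparison (20.0%). With the replicate number as a block (replicate block), 1 was called between the zones at 8 h (7.69%) and 2 in the average (21.0%). At 24 h against 8 h in periportal hepatocytes, 2 were called with this block. At 24 h same-numbered libraries of the zones correlated weakly, which does not show that they are paired. Fitting the 24 h groups alone with the replicate block (added after seeing the data) again called only Cbs of the 9 between the zones. Its log2 fold change was 0.73 (edgeR adjusted p 0.0299), and 3.27% of all genes were called in that fit. Over all states 9 of 18 libraries correlated best with their own number, each compared with the 3 libraries of the other zone in its state.

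Leaving out each library in turn gave 0 to 3 calls between the zones at 8 h (4.12% to 8.98% of all genes). It gave 1 to 4 in the average zone comparison (17.2% to 21.9%) and 0 to 1 at 8 h against fed in periportal hepatocytes. In pericentral and periportal hepatocytes it gave 0 to 1 and 1 to 3 at 24 h against fed, and 1 to 3 and 0 to 1 at 24 h against 8 h. For comparisons within a zone, only the shares of all genes in the fit of all 18 libraries are given, in the results above. Settings chosen after seeing the data left out 2 libraries. Periportal fed and 8 h replicates 1 were the lowest of their groups for 7 and 8 of the 9 genes. Leaving them out raises the levels of those genes in these groups by construction. Without periportal 8 h replicate 1 and pericentral 24 h replicate 2, the calls were 3 between the zones at 8 h (8.93% of all genes) and 4 in the average (20.9%). In periportal hepatocytes they were 1 at 8 h against fed and 0 at 24 h against 8 h. Without periportal fed and 8 h replicates 1, the calls were 3 between the zones at 8 h (8.23%) and 5 in the average (19.4%). They were 2 at 24 h against fed in pericentral hepatocytes and 2 at 24 h against 8 h in periportal ones. The cause of these shifts was not tested. The average zone comparison uses every group, so it has no fit of fewer groups. Under the same alternatives, applied to them after the data were seen, counts of the 47 neighbouring genes called at 24 h against fed ranged from 6 to 16 in pericentral and 4 to 11 in periportal hepatocytes.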

Other observations

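At 8 h against fed, edgeR called 7 of the 47 neighbouring genes in pericentral hepatocytes (13.8% of all genes tested) and 12 in periportal ones (14.4%). Hours of fasting and clock hour cannot be told apart at 8 h.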
